A study of Mus musculus with 19 samples.

Results

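The mitochondrially encoded transcripts of mouse liver were taken as every line of the gene count table whose Ensembl identifier pairs with a mouse symbol that starts with mt-. The rule found 37 of 55416 gene lines: 13 protein-coding genes, 2 ribosomal RNA (rRNA) genes and 22 transfer RNA (tRNA) genes. The choice used gene names alone and no measured value.

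The study sequenced poly(A)-selected RNA from whole liver of C57BL/6 mice, to ask how the liver responds to pre-renal azotemia (PRA), the build-up of nitrogenous waste in blood when the kidneys are poorly perfused, and whether interleukin 6 (IL-6) is needed for that response. Wild-type (WT) mice that were not injected form the normal group (n = 4). WT mice injected with vehicle (n = 4) are compared with WT mice made azotemic with furosemide, a loop diuretic (n = 4), and IL-6 -/- mice, called knockout here, were likewise given vehicle (n = 4) or furosemide (n = 3). Injections of 4 mg furosemide or of vehicle were intraperitoneal and 3 h apart, and liver was harvested 6 h after the opening dose. All groups share the strain and tissue, and the labels state no age, sex or source of the knockout line. Because the labels do not tie replicates to different mice, each p-value reflects only how far libraries of a group scatter, part of which may be technical.

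Mitochondrial DNA is a small circle that encodes core subunits of respiratory complexes I, III and IV and of ATP synthase, together with the rRNAs and tRNAs that mitochondrial ribosomes use to translate them. It is transcribed from both strands into long precursors, from which the tRNAs are cut out, leaving the rRNAs and messenger RNAs (mRNAs) between them. Most mitochondrial mRNAs then receive a poly(A) tail, the rRNAs receive only a short run of adenines and the tRNAs receive none, and liver, rich in mitochondria, depends on this genome for oxidative phosphorylation. Levels below are therefore levels of RNA recovered by poly(A) selection. In whole tissue, fewer cells of a type and less RNA per cell cannot be told apart.

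Parts of the mitochondrial genome also stand in the nucleus, which bears on which members can be read at all. In the GENCODE M21 transcripts (build GRCm38; the deposited counts use GRCm39, so positions are given within the transcript), unprocessed pseudogenes on chromosome 1 match 7 of the 13 protein-coding members over a shared stretch. The 3 pairs below are shown because they span the range from a copy that can be told apart at one end only to one that cannot be told apart at all. They give the first 60 bases of the shared stretch, 5′ to 3′, in lower case, with capitals at the bases that differ between the member and its nuclear copy.
mt-Co1: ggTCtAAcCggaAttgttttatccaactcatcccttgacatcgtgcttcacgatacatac
Gm29216: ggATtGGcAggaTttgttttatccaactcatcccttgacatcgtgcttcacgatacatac
mt-Nd3: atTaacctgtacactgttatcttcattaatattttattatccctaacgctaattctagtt
Gm28438: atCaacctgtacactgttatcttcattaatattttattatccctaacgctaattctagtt
mt-Nd4: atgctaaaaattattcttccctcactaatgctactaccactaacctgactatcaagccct
Gm28439: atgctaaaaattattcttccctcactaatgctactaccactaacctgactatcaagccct
In mt-Co1 (cytochrome c oxidase subunit I) the stretch covers bases 1054 to 1545 of the transcript and the copy was 98.8% identical, with all 6 differences among its first bases: T1056A, C1057T, A1059G, A1060G, C1062A and A1066T, counted from the first base of mt-Co1, with the member's base first. The mt-Nd3 copy (a complex I subunit) differed by T3C alone over 345 bases. The copy of mt-Nd4 (complex I) was identical over the first 876 bases of the 1378-base transcript.

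Reads are 150 bases from each end, so the share of 150-base windows of a member that occur exactly in a nuclear transcript says how much of it a read could match in 2 places. That share was 99.8% for mt-Co3 (cytochrome c oxidase subunit III), 99.4% for mt-Co2 (subunit II), 99.4% for mt-Atp6 (ATP synthase), 98.0% for mt-Nd4l and 97.0% for mt-Nd3 (complex I). It was 59.2% for mt-Nd4 and 23.6% for mt-Co1. No window was shared by mt-Cytb, mt-Nd1, mt-Nd2, mt-Nd5, mt-Nd6, mt-Atp8 or either rRNA. Only annotated transcripts were searched, so a nuclear copy without an annotated gene would not be seen. Reads placed in more than 1 location were 14.07% to 19.15% of a library and were counted in no gene.

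The level per kilobase of transcript, in counts as a share of the library total scaled by the trimmed mean of M-values (TMM CPM) and averaged over all 19 libraries, differed widely between members. mt-Cytb, the apocytochrome b of complex III, was highest at 17276 CPM per kb, followed by mt-Co1 at 13221, mt-Nd2 at 10835 and mt-Nd1 at 10016. The levels of mt-Nd2 and mt-Nd1 overlapped across libraries, at 8679 to 14168 and 7488 to 12812 CPM per kb. mt-Nd4 stood at 4357 and mt-Nd5 at 3684 CPM per kb. The rRNAs came next, at 710.2 CPM per kb for mt-Rnr1 (the small-subunit 12S rRNA) and 478 for mt-Rnr2 (the large-subunit 16S rRNA).

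The 5 genes with over 90% of their windows in a nuclear copy lay between 9.39 CPM per kb (mt-Nd3) and 148 CPM per kb (mt-Co2) and together held 0.347% of all protein-coding mitochondrial counts. The 6 genes with no such window held 63.9% and the 2 with part of their windows 35.8%. Low levels were not limited to genes with an annotated copy. mt-Nd6, the only mRNA on the other strand, was at 182 CPM per kb and mt-Atp8 at 33.0. mt-Atp8 overlaps the copied mt-Atp6, and whether nuclear sequence without an annotated gene also matches mt-Atp8 was not tested. In the count table the copied genes and their nuclear copies had similar totals, from 0.817 member counts per copy count for mt-Nd4l to 1.58 for mt-Co3, against 150 for mt-Nd4 and 520 for mt-Co1. Counts of those 5 members, whose reads could be divided with the copies, are therefore uncertain in level, and whether their changes belong to the member or the copy cannot be told apart. No source used here gives the strand setting of the counting, so sense and antisense reads at mt-Nd6 cannot be told apart, nor can reads in the overlaps of mt-Atp8 with mt-Atp6 and of mt-Nd4l with mt-Nd4.

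**Figure D1:**
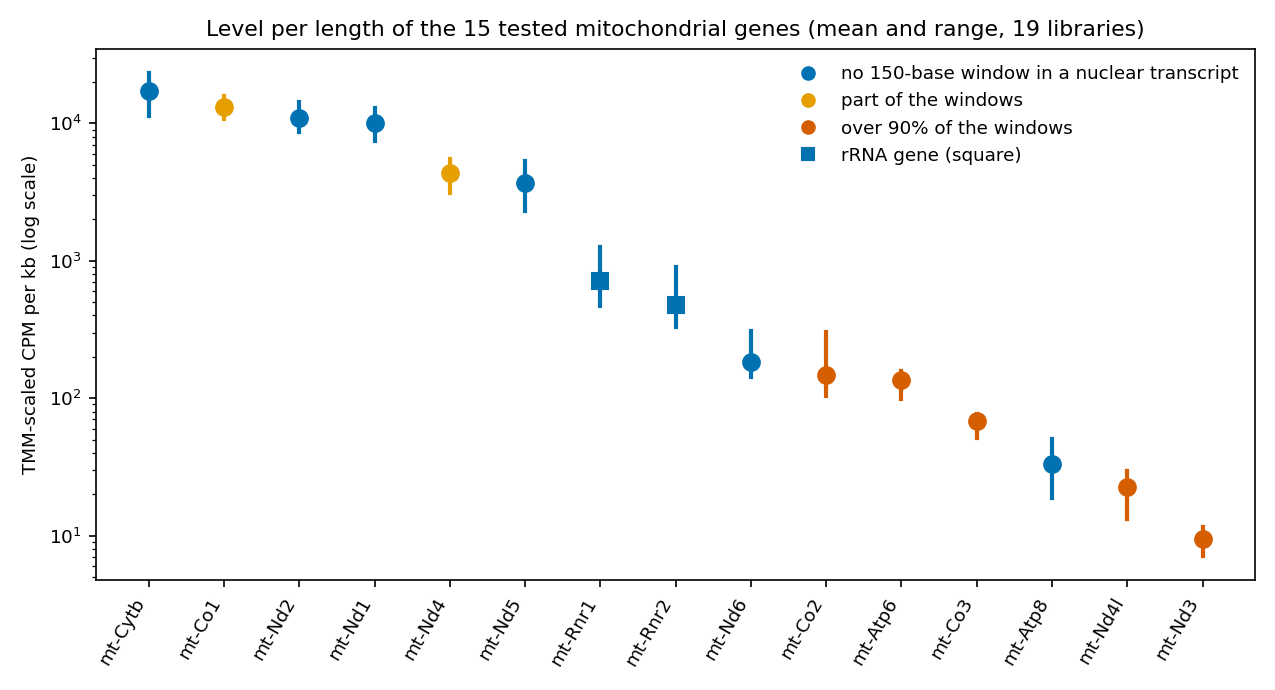
Level of the 15 measured mitochondrial genes per kilobase of transcript (TMM CPM per kb, log axis); points are means and lines the range over 19 libraries, squares are rRNAs, and colour gives the share of 150-base windows found in a nuclear transcript. The 5 genes with over 90% of their windows in a nuclear copy lie between 9.39 and 148 CPM per kb on average, a range that also holds mt-Atp8 at 33.0, while mt-Cytb, at 17276, is highest.

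The tRNA genes were almost unrecorded. Of the 22, 17 had no count in any library, which allows up to 3 counts per library, or 0.0405 to 0.0935 CPM. The other 5 were mt-Tm with 33 counts over all libraries and at most 5 in a library, mt-Tl1 with 5, mt-Tp with 2, and mt-Ti and mt-Tq with 1 each. None passed the filter on low counts, and no difference between groups was detectable at this depth. All 13 protein-coding genes and both rRNAs passed it, so 15 members were tested.

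Libraries held 32073865 to 74041441 gene counts, and the mitochondrial members took 6.42% to 8.40% of them. All 10 hepatocyte markers were detected and summed to 9.02% to 13.9% of counts. Their sum in TMM CPM separated the normal group, at 78305 to 87471, from WT PRA, at 118610 to 130850, knockout vehicle, at 104840 to 110660, and knockout PRA, at 121300 to 158950, while WT vehicle spanned 84437 to 108290. Summed red cell markers were 132 to 141 CPM in normal and 167 to 210.95 in WT PRA, and Kupffer cell markers 72.1 to 173 and 176 to 275. In WT vehicle, knockout vehicle and knockout PRA, red cell markers were 139 to 152, 133 to 159 and 152 to 193 CPM. Kupffer cell markers were 89.5 to 210, 205 to 232 and 168 to 225 CPM in the same order, so knockout vehicle also lay above normal. Summed neutrophil markers were 1.36 to 2.08 CPM in the normal group, 1.36 to 2.93 in WT vehicle, 9.66 to 11.8 in WT PRA, 4.24 to 6.00 in knockout vehicle and 3.95 to 12.5 in knockout PRA. WT PRA and knockout vehicle both lay above WT vehicle, and the knockout groups overlapped. The part of these marker differences in the results below was not tested. TMM factors were 1.11 to 1.15 in the normal group and 1.01 to 1.16 after vehicle, but 0.845 to 0.953 in the 7 PRA libraries. Without these factors the median log2 change of all genes was -0.33 in WT PRA against WT vehicle, -0.21 in knockout PRA against knockout vehicle and -0.40 in WT PRA against normal. Changes are given on the TMM scale unless unscaled totals are named.

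The clearest difference among these transcripts lay between injected and non-injected mice, and it was in the rRNAs. In the normal group mt-Rnr1 stood at 1204, 1122, 985 and 911 CPM. In WT vehicle it stood at 614, 730, 589 and 448 CPM, and in WT PRA at 499, 521, 518 and 496. All WT injected libraries were below every normal library. Knockout vehicle libraries held 698, 528, 602 and 657 CPM and knockout PRA libraries 662, 601 and 503, in the range of the other injected mice. The group means ± SD were 1055 ± 132 (normal), 595 ± 116 (WT vehicle), 508 ± 12.9 (WT PRA), 621 ± 73.7 (knockout vehicle) and 589 ± 80.5 CPM (knockout PRA).

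The 16S rRNA had the same pattern. mt-Rnr2 measured 1414, 1350, 1108 and 1073 CPM in the normal group. After vehicle it measured 645, 635, 672 and 538 CPM in WT and 754, 658, 714 and 755 in knockout. Under PRA it measured 518, 517, 584 and 539 CPM in WT and 686, 586 and 624 in knockout. The lowest normal library exceeded the highest of the 15 injected libraries for both rRNAs. Among the injected groups the ranges overlapped, except that WT PRA lay below knockout vehicle for both rRNAs and below knockout PRA for mt-Rnr2.

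Against normal, WT vehicle was lower by edgeR's quasi-likelihood test with Benjamini-Hochberg adjustment over 15570 genes, at 0.564-fold for mt-Rnr1 (log2 -0.83 ± 0.13 SE, adjusted p = 0.00222) and 0.503-fold for mt-Rnr2 (log2 -0.99 ± 0.10, adjusted p = 2.80e-05). These 2 of 15 members were called lower, where 0.822% of all genes were called lower and 2.00% in either direction. WT PRA against the same normal libraries gave 0.482-fold for mt-Rnr1 (log2 -1.05 ± 0.13, edgeR adjusted p = 4.03e-06) and 0.436-fold for mt-Rnr2 (log2 -1.20 ± 0.10, edgeR adjusted p = 3.13e-08). In that comparison 14.9% of all genes were called lower and 28.4% in either direction. All 4 falls stayed past the threshold in every alternative run, which left out each library in turn and changed the scaling, the filter, the tool and the samples. No batch is given in the labels, so a batch that coincides with the non-injected group cannot be told apart from the injections. Unaligned reads were 2.80% to 3.16% of normal and 2.15% to 3.06% of injected libraries. Reads placed in more than 1 location were 14.07% to 16.17% and 14.71% to 19.15%. The part of these differences in the falls was not tested.

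Between PRA and vehicle the rRNAs passed no test on the TMM scale. In WT the fold was 0.854 for mt-Rnr1 (95% interval 0.716 to 1.02, edgeR adjusted p = 0.222) and 0.867 for mt-Rnr2 (0.755 to 0.995, adjusted p = 0.156). The 95% intervals in this text use a normal cut-off on the SE and are approximate, somewhat narrower than the test. That of mt-Rnr2 ended at 0.995, while its unadjusted edgeR p was 0.0556. With library totals left unscaled both were called lower, at log2 -0.53 (adjusted p = 0.00227) and -0.51 (adjusted p = 0.000499). So were 6374 of all 15570 genes in that setting. In knockout the fold was 0.948 for mt-Rnr1 (0.783 to 1.15) and 0.878 for mt-Rnr2 (0.756 to 1.02). There, unscaled totals called mt-Rnr2 alone of the rRNAs, at log2 -0.40 (adjusted p = 0.0110), where 3229 of all 15570 genes were called lower.

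A measure that needs no scaling is the share of rRNA among all mitochondrial counts of a library. In the normal group it was 4.00%, 3.62%, 3.35% and 2.91%. It was 2.17%, 1.71%, 1.56% and 1.58% in WT vehicle and 1.88%, 1.51%, 1.83% and 2.04% in knockout vehicle. It was 1.28%, 1.22%, 1.24% and 1.43% in WT PRA and 1.45%, 1.26% and 1.40% in knockout PRA. The normal libraries thus lay above all others, and in each genotype every PRA library lay below every vehicle library. Because the mRNAs are part of the total, this share alone cannot tell less rRNA from more mRNA. The means were 3.47 ± 0.460% (SD, n = 4), 1.75 ± 0.288% (n = 4), 1.29 ± 0.0962% (n = 4), 1.82 ± 0.225% (n = 4) and 1.37 ± 0.0980% (n = 3) in the order normal, WT vehicle, WT PRA, knockout vehicle and knockout PRA. The 2 rRNAs kept to each other more closely than to the mRNAs: the count of mt-Rnr2 per count of mt-Rnr1 was 0.869 to 1.25 over all libraries, with group means from 1.06 to 1.17.

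Other RNAs moved with the rRNAs. Lars2, the nuclear gene of the mitochondrial leucyl-tRNA synthetase, shared no 50-base window with any mitochondrial transcript. It measured 360, 281, 240 and 241 CPM in the normal group and 78.7 to 172.6 CPM in the injected libraries. Its log2 change in WT vehicle against normal was -1.63 ± 0.20 (edgeR adjusted p = 0.000357). Unlike the rRNAs it was higher in WT PRA than in WT vehicle, by log2 0.62 ± 0.20 (edgeR adjusted p = 0.0298), a call kept in 11 of 18 alternatives and lost with unscaled totals (log2 0.33, adjusted p = 0.145). Rpph1, the RNA subunit of nuclear RNase P, which has no poly(A) tail, measured 2.80, 2.17, 1.46 and 1.48 CPM in the normal group and 0.0649 to 0.946 CPM in the injected libraries. It was the 1 gene, of 10 sufficiently counted small structural RNA and histone genes, for which every injected library lay below every normal one. The share of all genes that separate in this way, as the rRNAs and Lars2 also did, was not counted. Among those 10 the only other small structural RNA was Snord13, and the rest were histone genes. Snord13 measured 0.0530 to 0.155 CPM in the normal group and 0 to 0.351 CPM in the injected libraries. The part of such untailed RNA in the rRNA result was not tested.

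**Figure D2:**
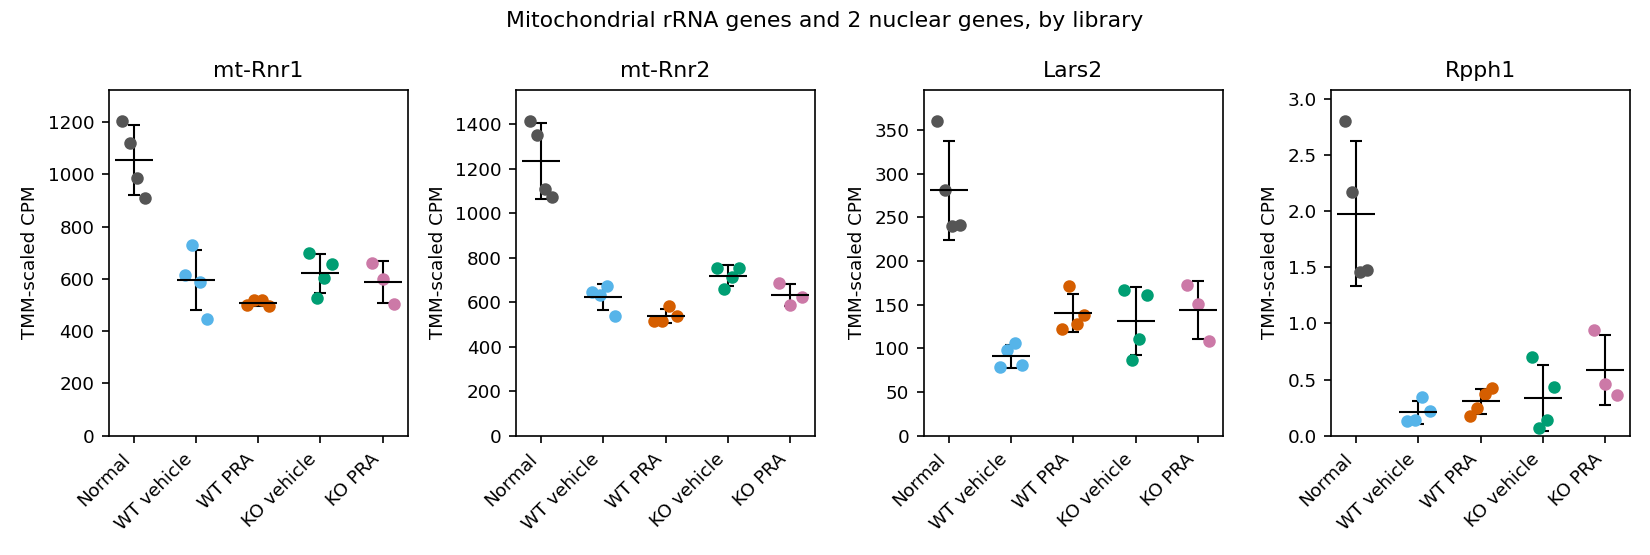
Levels of mt-Rnr1, mt-Rnr2, Lars2 and Rpph1 in each library (TMM CPM, linear axes from 0), with the mean and SD of each group. In all 4 panels the normal libraries lie above all injected libraries: the lowest normal library was 911 CPM for mt-Rnr1, 1073 for mt-Rnr2, 240 for Lars2 and 1.46 for Rpph1. The share of all genes that separate in this way was not counted.

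The mRNAs did not share the fall. As a plain share of gene counts, the 13 protein-coding genes made up 7.16 ± 0.242% in normal, 7.30 ± 0.899% in WT vehicle, 6.92 ± 0.470% in WT PRA, 7.61 ± 0.347% in knockout vehicle and 7.95 ± 0.354% in knockout PRA. On the TMM scale the same genes summed to 63818 ± 2813, 69118 ± 11767, 80279 ± 7210, 72843 ± 4504 and 87907 ± 7220 CPM in that order. The order of WT vehicle and WT PRA thus turned with the scaling. The vehicle-injected WT libraries were split, at 6.54%, 8.07%, 8.08% and 6.49% of gene counts, and the other groups lay within that range except for knockout PRA, which reached 8.29%, and WT PRA, which went down to 6.33%.

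**Figure D3:**
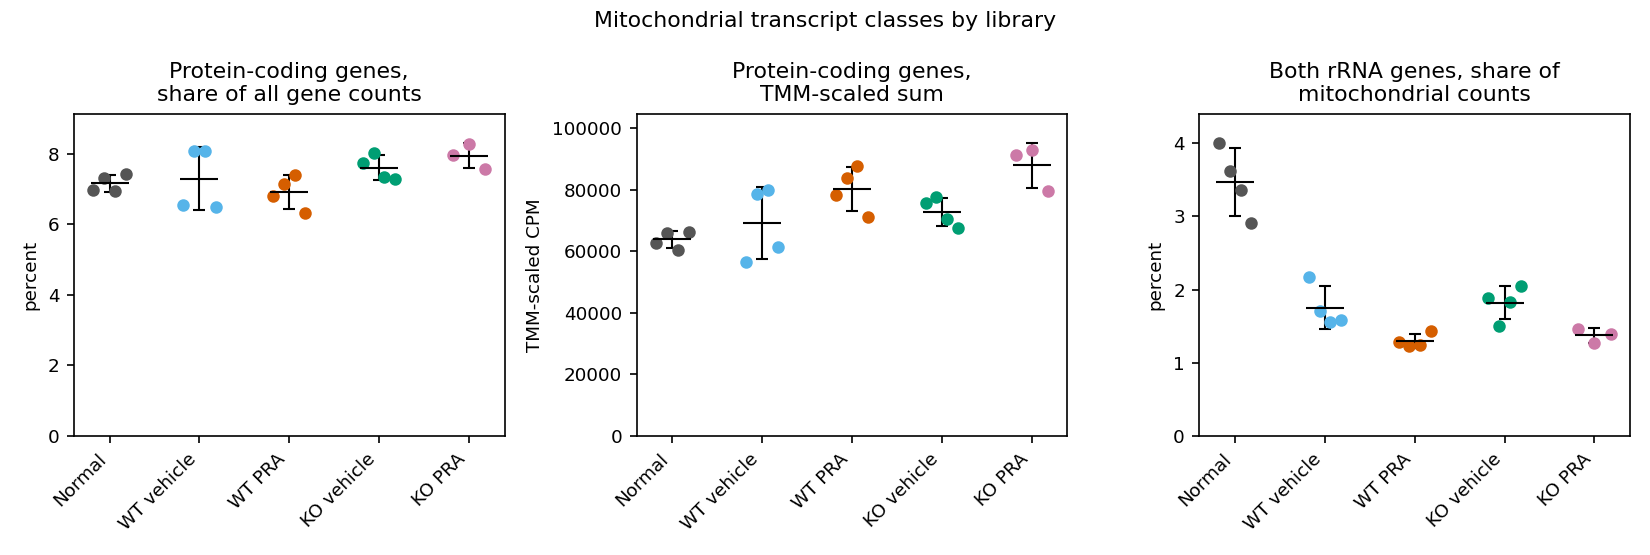
Protein-coding mitochondrial genes as a percent of all gene counts (left) and as summed TMM CPM (middle), and both rRNAs as a percent of mitochondrial counts (right), by library, with the mean and SD of each group. WT PRA lies below WT vehicle on average in the left panel (6.92% against 7.30%) and above it in the middle panel (80279 against 69118 CPM), while the right panel, free of scaling, has the normal group highest at 3.47%.

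Against normal, no mRNA was called in WT vehicle by edgeR, where 1.18% of all genes were called higher. At an unadjusted p under 0.05 there were 2 of 13, mt-Nd4l (log2 0.43 ± 0.13, adjusted p = 0.105) and mt-Nd5 (log2 0.42 ± 0.13, adjusted p = 0.107). DESeq2 and limma-voom each called 1 mRNA, mt-Nd5, where they called 379 of 27052 and 397 of 15570 genes higher. In WT PRA against normal, 5 of 13 mRNAs were higher on the TMM scale, where 13.5% of all genes were called higher, and all 13 had log2 changes above 0, from 0.18 to 0.69 with a median of 0.33. With unscaled totals none of the 5 was called, the median was -0.06, and 10 of 13 lay below 0, mt-Cytb (-0.0024) and mt-Nd4 (-0.029) among them. DESeq2, limma-voom and a fit of the compared groups alone each called 8 mRNAs higher. Of all genes, they called 2356 of 27052, 2763 of 15570 and 2576 of 14455 higher, in that order.

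Of the complex I genes, mt-Nd5, mt-Nd4l and mt-Nd4 were called. The levels of mt-Nd5 were 4180, 4965, 5058 and 5191 CPM in normal, 6419, 6984, 6530 and 5957 in WT vehicle, and 7184, 7937, 8620 and 6498 in WT PRA. Every injected WT library lay above every normal one, and WT vehicle and WT PRA overlapped. WT PRA stood at 1.56-fold of normal (log2 0.64 ± 0.13, edgeR adjusted p = 0.000939). As a share of mitochondrial counts, mt-Nd5 was 6.39% to 8.11% in normal, 8.06% to 11.1% in WT vehicle and 9.28 ± 0.323% (SD, n = 4) in WT PRA, where all 4 libraries lay above all 4 normal ones.

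mt-Nd4l, one of the members with a near-complete nuclear copy, stood at 3.93, 6.19, 4.73 and 4.09 CPM in normal and 7.48, 6.86, 8.78 and 7.41 in WT PRA, 1.61-fold higher without overlap (log2 0.69 ± 0.14, edgeR adjusted p = 0.000666). Its copy Gm10222 was also higher, by log2 0.46 ± 0.15 (edgeR adjusted p = 0.0278). The calls for mt-Nd4l and mt-Nd5 held in 17 of 18 alternatives, the exception for both being unscaled totals, with log2 0.31 (adjusted p = 0.0613) and 0.26 (adjusted p = 0.0911). mt-Nd4 stood at 5169, 5182, 4856 and 5657 CPM in normal and 6320, 7207, 7334 and 5781 in WT PRA (log2 0.35 ± 0.13, edgeR adjusted p = 0.0480).

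The remaining complex I genes, mt-Nd1, mt-Nd2, mt-Nd3 and mt-Nd6, had log2 values of 0.33, 0.18, 0.30 and 0.33 in this comparison and were not called by edgeR, although mt-Nd1 was by DESeq2 and limma-voom. mt-Cytb, the one complex III gene, stood at 16146, 17119, 15874 and 17921 CPM in normal and 22178, 21756, 24851 and 18432 in WT PRA, again without overlap (log2 0.38 ± 0.14, edgeR adjusted p = 0.0491). WT vehicle spanned both, from 12972 to 22381 CPM. The ATP synthase gene mt-Atp8 stood at 6.84, 5.76, 5.40 and 4.55 CPM in normal and 6.33, 10.3, 8.19 and 7.63 in WT PRA, which overlapped (log2 0.53 ± 0.19, edgeR adjusted p = 0.0456). The calls of mt-Nd4, mt-Cytb and mt-Atp8 stood just inside the threshold and were lost in most fits that left out 1 of the 8 libraries. The 3 complex IV genes and mt-Atp6 were not called, at log2 0.26 (mt-Co1), 0.19 (mt-Co2), 0.29 (mt-Co3) and 0.19 (mt-Atp6). Of these, mt-Co1 (edgeR adjusted p = 0.0564) and mt-Co3 (0.0511) lay just outside the threshold and were called by DESeq2, limma-voom, with the scaling of DESeq2 and from the compared groups alone.

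Azotemia against vehicle in WT called none of the 15 members by edgeR, where 22.1% of all genes were called, 9.74% higher and 12.3% lower. DESeq2 and limma-voom called none either. At an unadjusted p under 0.05 there were 2 members by edgeR, 3 by DESeq2 and 3 by limma-voom. The 13 mRNAs had log2 changes of 0.08 to 0.43 with a median of 0.17, all above 0 on the TMM scale, but 12 of 13 were below 0 with unscaled totals, where the median was -0.13. The 2 at an unadjusted p under 0.05 were mt-Nd1 at 1.21-fold (95% interval 1.02 to 1.45, edgeR adjusted p = 0.124) and mt-Atp8 at 1.35-fold (1.04 to 1.75, edgeR adjusted p = 0.118). For mt-Co1, the most counted member, the fold was 1.11 with an interval of 0.968 to 1.27.

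In knockout, azotemia against vehicle called 2 of 15 members, both higher, where 16.3% of all genes were called, 7.96% higher and 8.38% lower. mt-Nd5 stood at 5672, 8500, 5615 and 5485 CPM after vehicle and 8140, 9123 and 9619 under PRA. It was 1.42-fold higher (95% interval 1.17 to 1.72, edgeR adjusted p = 0.0170), with 1 vehicle library inside the PRA range. That call was lost, with the same direction, without any one of knockout PRA replicates 2 and 3 or knockout vehicle replicates 1, 3 and 4, where log2 changes were 0.44 to 0.49. It was also lost with unscaled totals (log2 0.30, adjusted p = 0.113) and in a fit of the compared groups alone (adjusted p = 0.0598). mt-Co2 stood at 99.4, 90.8, 90.8 and 103 CPM after vehicle and 206.8, 122 and 91.0 under PRA, 1.46-fold higher (1.14 to 1.87, edgeR adjusted p = 0.0467). mt-Co2 kept this call in 6 of 17 alternatives and lost it without knockout PRA replicate 2 or any 1 knockout vehicle replicate. Without knockout PRA replicate 1, the library at 206.8 CPM, its log2 change went from 0.54 to 0.17 (edgeR adjusted p = 0.456), and with unscaled totals it was 0.32 (adjusted p = 0.149). Its nuclear copy Gm28661 had 98.6, 95.7 and 81.3 CPM in the same 3 libraries. Because reads could be divided between the member and the copy, the source of the high value cannot be told.

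In the reported edgeR fit, the other 11 mRNAs were not called in knockout. Over all 13 the log2 changes were 0.03 to 0.54 with a median of 0.25, all above 0 on the TMM scale, and with unscaled totals 7 were above and 6 below 0, with a median of 0.04. mt-Cytb was 1.26-fold (1.02 to 1.54, edgeR adjusted p = 0.149), mt-Nd1 1.24-fold (1.03 to 1.50, adjusted p = 0.131) and mt-Nd6 1.33-fold (1.03 to 1.72, adjusted p = 0.149). mt-Nd6 also rested on 1 library, with 87.2, 161 and 98.9 CPM under PRA.

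**Figure D4:**
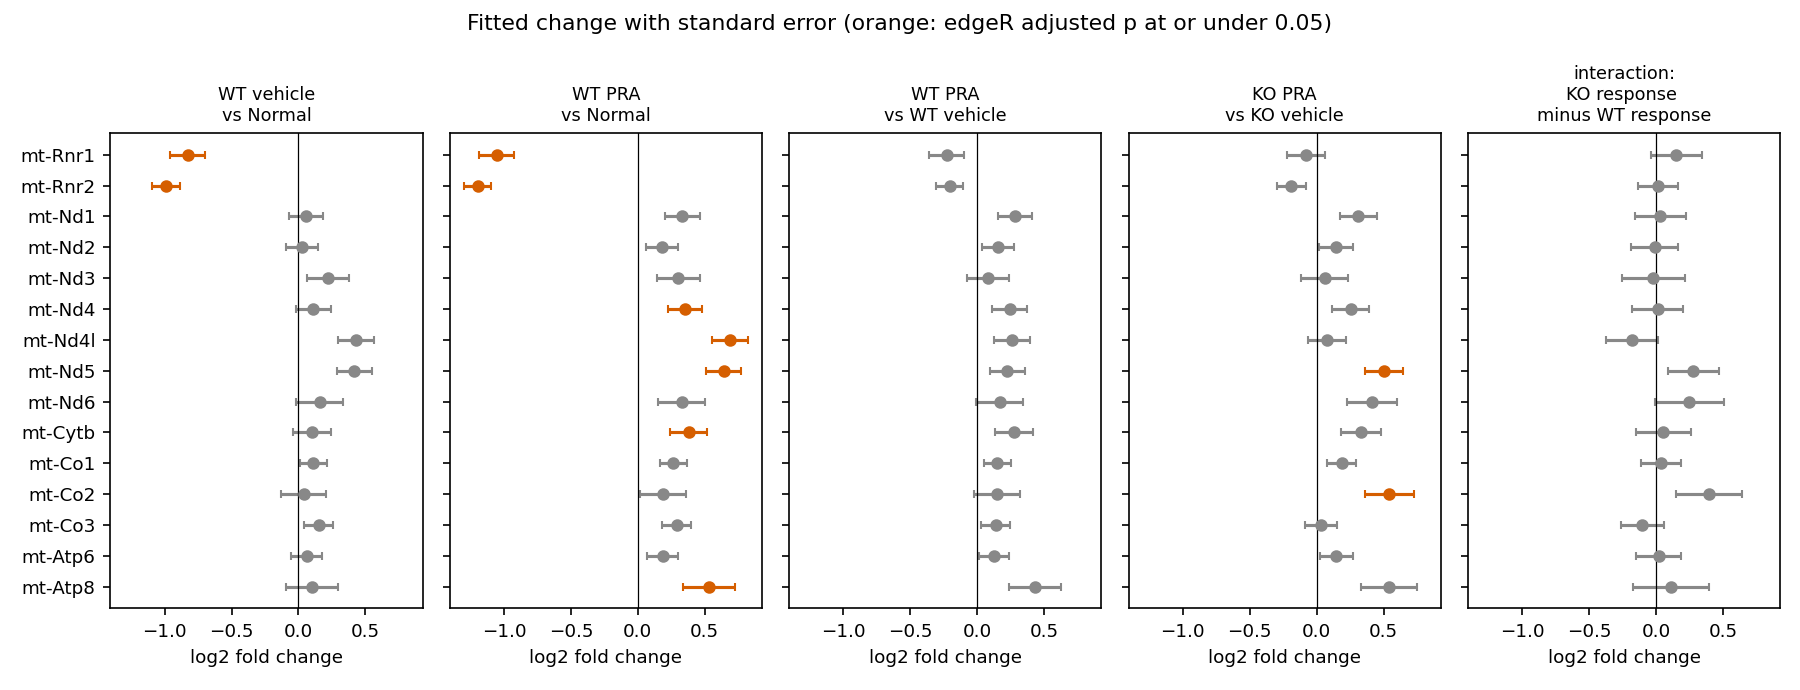
Log2 changes on the TMM scale, with standard errors, of the 15 tested mitochondrial genes in WT vehicle and WT PRA against normal, in PRA against vehicle for each genotype, and in the interaction; orange marks an edgeR adjusted p at or under 0.05. Both rRNAs lie at -0.83 to -1.20 against normal, whereas the mRNAs lie at 0.03 to 0.69 there and at 0.03 to 0.54 for PRA against vehicle in either genotype, where with unscaled totals 12 of 13 in WT and 6 of 13 in knockout lie below 0.

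**Figure D5:**
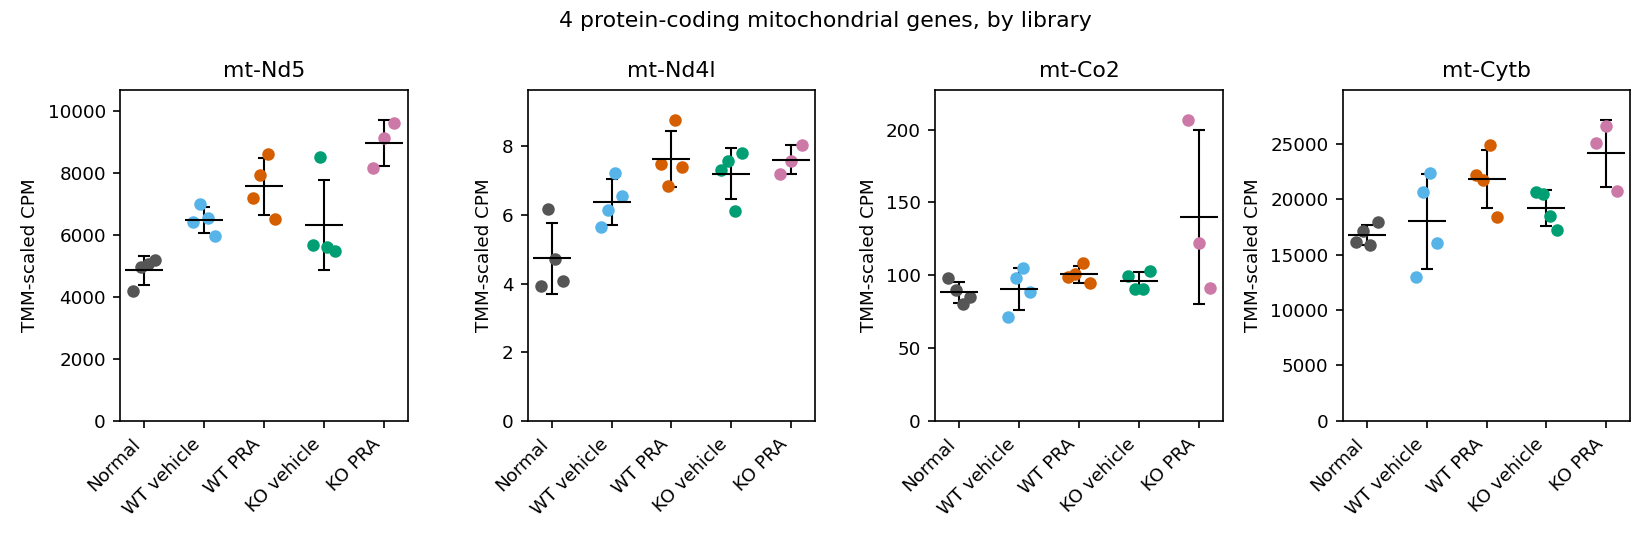
TMM CPM of mt-Nd5, mt-Nd4l, mt-Co2 and mt-Cytb in each library, with the mean and SD of each group and axes from 0. One knockout vehicle library stands at 8500 CPM of mt-Nd5, and 1 knockout PRA library at 206.8 CPM of mt-Co2.

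By edgeR's test on all libraries, no member was called between the genotypes. No difference between the knockout and WT responses to azotemia passed for any of the 15 members (edgeR interaction, 0 called and 0 at an unadjusted p under 0.05; DESeq2 0 and 0; limma-voom 0 and 2), where 0.475% of all genes were called, 0.0385% higher and 0.437% lower. The widest interaction was that of mt-Co2 at log2 0.39 ± 0.25, and that of mt-Rnr2 was 0.02 ± 0.15, a fold of 1.01 with an interval of 0.827 to 1.24. Under vehicle, knockout against WT also called none by edgeR, DESeq2 or limma-voom, with 0, 1 and 1 at an unadjusted p under 0.05, where 0.0706% of all genes were called, 0.0514% higher and 0.0193% lower. The mRNA folds there were 0.919 for mt-Nd3 at the lowest and 1.13 for mt-Nd4l at the highest.

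Under azotemia, knockout against WT called none by edgeR and DESeq2, with 2 at an unadjusted p under 0.05 in each, and 1 by limma-voom, mt-Co2 (log2 0.53, adjusted p = 0.0486), where 3.80% of all genes were called by edgeR, 1.64% higher and 2.15% lower. The 2 in edgeR were mt-Co2 at 1.39-fold (95% interval 1.09 to 1.78, adjusted p = 0.172), which holds the library at 206.8 CPM and was called by edgeR without knockout PRA replicate 3 (log2 0.71, adjusted p = 0.0148), and mt-Rnr2 at 1.17-fold (1.01 to 1.36, adjusted p = 0.302). The knockout comparisons share groups with one another and are not independent.

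The nuclear genes that copy, transcribe and process this genome were read from a list of 57, of which 56 were in the table and tested. In WT PRA against WT vehicle, 3 were higher and 9 lower, where 9.74% of all genes were called higher and 12.3% lower. With unscaled totals 0 were higher and 31 lower, where 660 of all 15570 genes were higher and 6374 lower. In knockout, 5 of the 56 were higher and 7 lower, where 7.96% of all genes were called higher and 8.38% lower.

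Mrm2, a methyltransferase of 16S rRNA, stood at 8.46 ± 0.758 CPM in WT vehicle and 4.92 ± 0.712 in WT PRA (0.579-fold, edgeR adjusted p = 2.79e-05). In knockout it was 0.640-fold (edgeR adjusted p = 0.000762). Rpusd4, a pseudouridine synthase that acts on 16S rRNA, was 0.654-fold in WT (edgeR adjusted p = 0.00116) and 0.720-fold in knockout (adjusted p = 0.0179). Mterf4, which is required for assembly of the mitochondrial ribosome, was 0.756-fold in WT (edgeR adjusted p = 0.00764) and 0.688-fold in knockout (adjusted p = 0.00222). In WT vehicle against normal, Mrm2 was at 0.892-fold and was not called.

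Trit1, which adds an isopentenyl group to tRNAs, was 0.666-fold in both genotypes (edgeR adjusted p = 0.00101 in WT and 0.00281 in knockout). Mgme1, an exonuclease of mitochondrial DNA replication, was 0.679-fold in WT (edgeR adjusted p = 0.00108) and 0.743-fold in knockout (adjusted p = 0.0181). Tfam, which packages mitochondrial DNA and starts its transcription, went from 34.9 ± 2.75 to 28.7 ± 1.58 CPM in WT (edgeR adjusted p = 0.0116) and from 35.9 ± 1.81 to 30.0 ± 1.44 CPM in knockout (adjusted p = 0.0370). In knockout its call held in 8 of 17 alternatives, that of Mgme1 in 15 and that of Rpusd4 in 14.

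On the TMM scale, Mterf3, a mitochondrial transcription termination factor family member reported to restrain transcription, was 1.25-fold in WT (edgeR adjusted p = 0.00872) and 1.29-fold in knockout (adjusted p = 0.00853). Trmt10c, a subunit of the mitochondrial RNase P that frees tRNAs from the precursor, was 1.22-fold in WT (edgeR adjusted p = 0.0198) and 1.29-fold in knockout (adjusted p = 0.00891). With unscaled totals neither was called in either genotype, and Trmt10c in WT turned to log2 -0.012. The WT call of Trmt10c was also lost without WT PRA replicate 2 (adjusted p = 0.0605), and the knockout call of Mterf3 without knockout PRA replicate 2 (adjusted p = 0.0645). Trmt10c was also the 1 gene of the 56 called in WT vehicle against normal, at 0.770-fold (edgeR adjusted p = 0.0221), a call held in 13 of 18 alternatives. In that comparison 0.822% of all genes were called lower and 2.00% in either direction.

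Among the nuclear coactivators, Pprc1 was 1.57-fold in WT (edgeR adjusted p = 0.00964) and 1.46-fold in knockout (adjusted p = 0.0499), the latter a call held in 8 of 17 alternatives. With unscaled totals the WT call was lost as well (log2 0.34, adjusted p = 0.160). Ppargc1b, the coactivator PGC-1β, was 0.423-fold in WT (4.84 ± 1.21 to 2.05 ± 0.413 CPM, edgeR adjusted p = 0.000866). In knockout it was 0.808-fold (edgeR adjusted p = 0.446), and the difference between the genotypes did not pass (interaction log2 0.93 ± 0.35, adjusted p = 0.372). Ppargc1a, the coactivator PGC-1α of mitochondrial biogenesis, was 2.26-fold in knockout (4.12 ± 1.38 to 9.35 ± 1.64 CPM, edgeR adjusted p = 0.00523). In WT it was 1.40-fold and was not called (adjusted p = 0.185), and the difference between the genotypes did not pass either (interaction log2 0.69 ± 0.37, edgeR adjusted p = 0.640). Fastkd3, which binds mitochondrial mRNAs, was 1.32-fold in knockout (edgeR adjusted p = 0.0485) in a call held in 7 of 17 alternatives and lost with unscaled totals (log2 0.20, adjusted p = 0.350).

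For the interaction and for knockout against WT vehicle, 0 of the 56 were called by edgeR, DESeq2 or limma-voom. At an unadjusted p under 0.05 there were 4, 4 and 5 in the interaction and 2, 2 and 1 under vehicle, in the same order of tools. Under azotemia, knockout against WT called 1 of the 56 by edgeR and DESeq2, Mrm1, which was higher. All genes were called 1.64% higher and 2.15% lower there by edgeR, and limma-voom also called Pprc1, lower. In WT PRA against normal, 2 of the 56 were higher and 10 lower by edgeR, where 13.5% of all genes were higher and 14.9% lower. With unscaled totals 0 were higher and 40 lower, where 811 of all 15570 genes were higher and 7993 lower.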

How the data were processed

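The authors deposited raw read counts per gene, for the series and per library, with identical values. Build GRCm39, HTSeq 0.11.3, HISAT2 2.2.1 and SAMtools 1.13 stand in the submitters' processing notes. Annotation release and strand setting: not given in the sources used here. Summary lines (reads outside genes 6.28% to 7.58% of a library, ambiguous 0.505% to 0.639%) were left out. Of 55416 gene lines 52083 had a symbol, and all 37 mitochondrial identifiers matched.

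Tests used edgeR 4.0.16 under R 4.3.3, with filterByExpr (15570 genes kept), TMM scaling and 1 robust quasi-likelihood fit of group means across all 19 libraries. There were 7 contrasts, with Benjamini-Hochberg adjustment at 0.05. Levels are TMM-scaled CPM. DESeq2 1.42.0, limma-voom (limma 3.58.1), other scalings and filters, subsets and left-out replicates were alternatives. The models were tested on simulated data. Replicates differed by more than sampling noise (lowest chi-square per degree of freedom 20.9).

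Every rRNA and protein-coding member could be named, and from the machinery list up to 6 genes in each direction by adjusted p in each PRA-vehicle comparison. Mrm2 and Trmt10c against normal, Mrm1 and Pprc1 in knockout against WT PRA, and the values of named genes in the other genotype, were added after their values were seen. Lars2 and the nuclear copies came from a list of candidates. Members and lists were chosen with earlier results of these data known, and the list of small structural RNA and histone genes (27 listed, 19 in the table) after the data were seen. Floors of 3 counts and fold intervals cover counting error or the fit only. Fold intervals use a normal cut-off on the SE, so they are narrower than the quasi-likelihood test behind the p-values.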

Additional observations from a re-analysis of the deposited data

Results flagged for a closer look

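In 120 groups of 4 libraries (the tested members and named nuclear genes in the groups with that many), 5 single libraries stood apart from the other 3 of their group by Dixon's criterion. Chance flags about 1 in 20 such groups, which is about as many as were found or more. Knockout vehicle replicate 2 was high for a complex I and a complex IV gene: its mt-Nd5 level was 8499.6 CPM, with the nearest library at 5672, and its mt-Co1 level was 22271 CPM, with the nearest at 20216. The first of these lies inside the range of the knockout PRA libraries. WT vehicle replicate 1 was low for mt-Co3, at 40.6 CPM against 55.9 in the nearest library. Among nuclear genes, Ppargc1b stood at 2.49 CPM in normal replicate 4 against 3.37 in the nearest library, and Fastkd3 at 4.01 CPM in WT PRA replicate 2 against 4.45.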

How the results depend on the processing

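Counts of called members are given in parentheses, out of 15, beside the reported count. Both rRNA falls against normal held in every alternative. WT PRA against normal (7) gave 2 with unscaled totals, 4 with upper quartile scaling, 9 with the scaling of DESeq2, 10 with DESeq2, limma-voom or its own groups alone, and 4 to 7 without 1 replicate. Knockout PRA against vehicle (2) gave 1 with unscaled totals (mt-Rnr2, lower, with both reported calls lost), 1 with upper quartile scaling, 1 without a count filter, 0 from its own groups alone, 4 with limma-voom and 0 to 3 without 1 replicate. WT PRA against vehicle (0) gave 2 with unscaled totals, where 6374 of all 15570 genes were called lower, and 0 to 1 without 1 replicate. Knockout against WT PRA (0) gave 1 with limma-voom and 0 to 1 without 1 replicate. WT vehicle against normal gave 2 to 3. The interaction and knockout against WT vehicle gave 0 throughout. Of the called changes, 3 reversed with unscaled totals: mt-Cytb (-0.0024) and mt-Nd4 (-0.029) in WT PRA against normal, and Trmt10c in WT PRA against vehicle (-0.012). Among all 13 mRNAs, called or not, 10 then lay below 0 in WT PRA against normal, 12 in WT PRA against vehicle and 6 in knockout PRA against vehicle. The cause was not tested. Without rRNA the mitochondrial share in normal was 7.18% in place of 7.42%; without 1 replicate the shares were 7.34% to 7.50% (normal), 7.16% to 7.70% (WT vehicle), 6.84% to 7.21% (WT PRA), 7.61% to 7.85% (knockout vehicle) and 7.90% to 8.25% (knockout PRA).

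Pairing by replicate number was not evident: over 36 same-number pairs the correlation of deviations was -0.25 to 0.19, with 9 over 0.1. Over 108 other-number pairs it was -0.22 to 0.27, with 16 over 0.1. With so few libraries per group, these correlations cannot exclude a pairing or a shared batch. A replicate block gave 4 calls in WT PRA against normal and 1 in knockout PRA against vehicle, and changed no other count.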
